A study of Mus musculus with 8 samples.

Results

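The subject is the set of genes that passed a fold threshold both in Ascl2 null organoids and on arrays labelled Ascl2 OE (overexpression), in opposite directions or in the same one. The organoids were small intestinal cultures of the mouse, which form gut epithelium with crypt-like buds. The loss value of a gene was its log2 ratio on the array of Ascl2 null organoids over control organoids, minus its ratio on the array of that slide that carried control RNA in both colours (self-self). The gain value was the mean of the 2 dye-swapped arrays of experiment 1, each turned to Ascl2 OE over control. A gene was a member if both values passed 1.5-fold, which is 0.58 on the log2 scale. Of 18685 genes with both values, 402 were members. Among them, 251 had higher loss and lower gain values, 121 had lower loss and higher gain values, 15 were higher in both and 15 were lower in both.

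Ascl2 encodes a stem cell transcription factor with a basic helix-loop-helix domain and is itself a target of Wnt signalling. The stem cells at the crypt base carry markers such as Lgr5 and Olfm4 and produce absorptive enterocytes and the secretory Paneth, goblet, enteroendocrine and tuft cells. Proteins of its class bind DNA at E-box motifs.

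The null organoids of experiment 3 carried the genotype Ascl2null after a 16 h pulse of 4OH-tamoxifen that deleted Ascl2. Their control on the same array was labelled VillinCreERT2, with the same pulse. The genotype field of the self-self array reads VillinCreERT2, while its description reads Ascl2loxp/loxp. The Ascl2 OE organoids of experiment 1 were Ascl2 transduced, with CMV-driven Ascl2 induced by the 16 h pulse and RNA taken after 24 h. Their control was VillinCreERT2 with the 16 h pulse. A further array, from experiment 2 and not used to choose the members, compared Ascl2 over expressing organoids with dsGFP transduced organoids, both pulsed for 16 h, and had a dsGFP self-self array of its own. The pulse acts on a CreERT2 recombinase named for Villin, an epithelial gene. The labels used here do not give the transduced construct's sequence, the deleted part of Ascl2, or whether the replicates came from separate cultures. All errors below thus measure a spread between arrays, which may be technical. They come from a fit of gain with a dye term shared with the self-self arrays of experiments 2 and 3, so n = 2 counts the Ascl2 OE arrays only. A difference between the 2 Ascl2 OE arrays enters the error only as far as it departs from the self-self ratios. The errors are thus not the spread between replicates. Over all genes, the mean Cy5 over Cy3 ratio of the 2 Ascl2 OE arrays had an r of -0.34 with the experiment 3 self-self array. With that of experiment 2 the r was 0.19, so the dye term was poorly shared.

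Each experiment had its own slide and scan day, so experiment and slide cannot be told apart. Of the epithelial identity genes, which mark the labelled cell type, 12 of 12 passed the filter on dim probes, as did 8 of 12 mesenchymal, 9 of 12 immune, 7 of 10 endothelial and 8 of 10 neural genes. None of the 32 measured genes of the mesenchymal, immune, endothelial and neural lists was a member, since none passed 1.5-fold in gain. With 402 members among 18685 genes, a count of 0 in 32 says little about these cell types. In loss, 1 mesenchymal gene was lower at 1.5-fold (Postn, -1.73). Among endothelial genes 1 was higher and 1 lower (Esam, -1.38), and among neural genes 1 was higher and 2 lower. Immune genes had 0 past 1.5-fold in loss. Whether such cells were present was not tested. In bulk RNA, fewer cells of a type and less RNA per cell cannot be told apart.

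The probe for Ascl2 itself lies at chr7:150154439-150154498 of mm9. Its log2 ratio was -1.07 on the null array and -0.26 on the self-self array, which gave a loss value of -0.80. It was -0.31 and 0.13 on the arrays labelled Ascl2 OE, replicates 1 and 2, and the gain value was -0.09 ± 0.12 (SE, n = 2, limma adjusted p = 0.871). The probe was thus lower in null organoids and had no higher mean on the arrays labelled Ascl2 OE. Since neither the deleted part nor the construct's extent is given, the probe checks neither label. On the experiment 2 array labelled Ascl2 OE, its value was -0.69 after subtraction of the self-self array.

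The null organoids also differed from their control in Y-linked genes, which were looked at after their values had been seen. Eif2s3y was at least 12.2-fold lower in null organoids, Ddx3y at least 4.03-fold lower and Kdm5d at least 1.91-fold lower, because none was well above background in null RNA while all were in control RNA. Their gain values were 0.25, 0.14 and 0.10. Uty, also Y-linked, was not well above background in either RNA of experiment 3. Xist, the X-inactivation RNA, was measured in both, with a log2 ratio of 0.62 on the null array and a loss value of 0.49. The sex of the source animals was not used, and its part in the loss values was not tested.

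Over all genes, 5.56% had higher and 5.37% lower loss values at 1.5-fold, and 1.51% had higher and 2.52% lower gain values, or 4.04% in all. In either direction, loss passed 1.5-fold for 10.9% of genes, against 8.19% for the difference between the self-self arrays of experiments 3 and 2, in which no Ascl2 contrast enters. For gain, the matching value was the mean Cy5 over Cy3 ratio of the 2 Ascl2 OE arrays minus the mean of the self-self arrays. In it the Ascl2 contrast cancels, and 1.73% of genes were higher and 0.95% lower at 1.5-fold, or 2.68% in either direction. Its share of higher genes was thus above the 1.51% with higher gain. The genes with higher loss and lower gain made up 24.2% of all genes with higher loss and 53.3% of those with lower gain. Those with lower loss and higher gain made up 12.1% of the genes with lower loss and 42.8% of those with higher gain. The same-direction genes were a small share of each list, at 1.44% and 5.30% for those higher in both and 1.49% and 3.18% for those lower in both. Of the 402 members, 92.5% lay in opposite directions. Of all genes, 1.34% had higher loss and lower gain, 0.648% lower loss and higher gain, and 0.0803% were in each same-direction class.

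**Figure D1:**
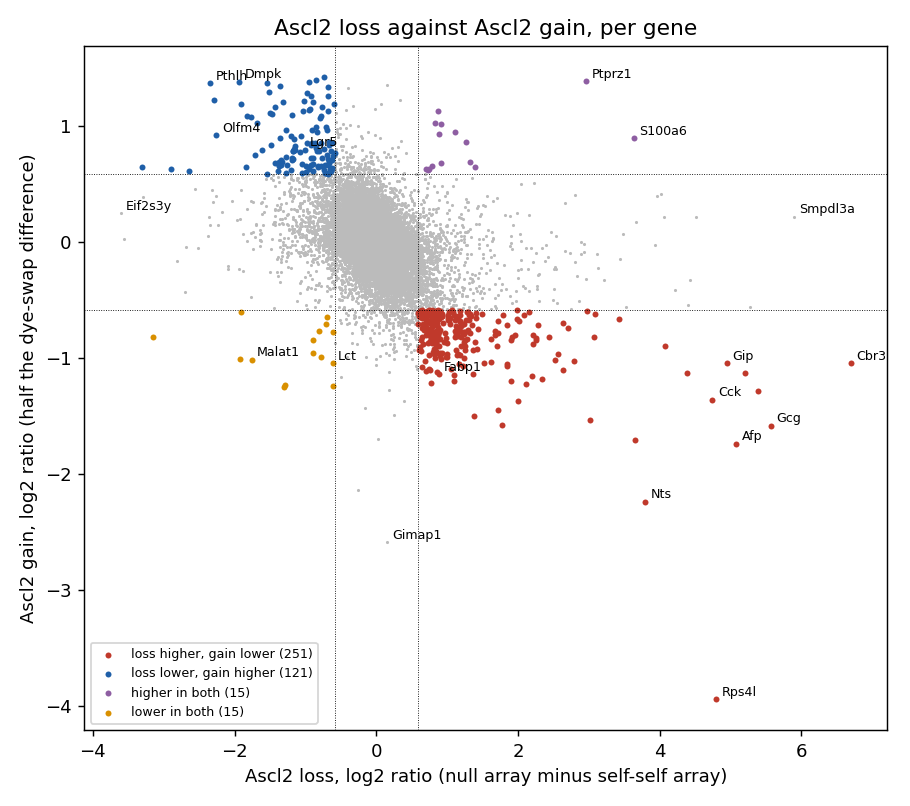
Loss value (horizontal, log2) against gain value (vertical, log2) for 18685 genes, with the 402 members coloured by class and the 1.5-fold lines dotted. The cloud slopes downwards, and the lower right corner holds the hormone genes Nts, Gcg, Cck and Gip.

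Across the 18685 genes, loss and gain values had a Pearson r of -0.44, given as a description, since genes share arrays and are not replicates. The slides share no array. The experiment 3 self-self array, which enters the loss value with a minus sign, moved with the gain values too. With its sign turned, its r with gain was -0.32, and it alone would have placed 74 genes in opposite directions and 5 in the same. Without the subtraction, the null array alone gave an r of -0.25, with 274 opposite and 62 same-direction genes. Of the members, 179 of 251 and 80 of 121 opposite genes passed 1.5-fold on the null array alone. The self-self array lay on the side that enlarged the loss value for 185 of 251 and 84 of 121. Its part in the other members was not tested.

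Hormone genes of the gut made up 4 of the 10 leading genes with higher loss and lower gain, and 5 of all members of that class. Leading genes were ranked by the smaller of the 2 absolute values, among genes whose 2 Ascl2 OE arrays agreed in sign after the dye term. Nts encodes neurotensin, Sst somatostatin, Gcg the precursor of glucagon and GLP peptides, Cck cholecystokinin and Gip the glucose-dependent insulinotropic peptide. Gcg had a log2 ratio of 5.53 on the null array and -0.05 on the self-self array, and of -1.30 and -1.88 on the Ascl2 OE arrays. The null array was far above 0 and both arrays labelled Ascl2 OE were below it. The resulting loss value was 5.57 and the gain value -1.59 ± 0.14 (SE, n = 2, limma adjusted p = 0.0296). Cck had 4.62 on the null array and -0.12 on the self-self array, with -1.12 and -1.60 on the Ascl2 OE arrays. Gip had 5.04 and 0.09 on the experiment 3 arrays, with -1.06 and -1.04 on the Ascl2 OE arrays. Both showed the order seen for Gcg, and their loss values were 4.74 and 4.95. Sst had 3.57 on the null array and -0.08 on the self-self array, with -1.66 and -1.75 on the Ascl2 OE arrays. Nts had the lowest gain of the 5, at -2.24 ± 0.13 (SE, n = 2), with -2.39 and -2.09 on the Ascl2 OE arrays and 3.62 on the null array.

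Of 15 measured hormone genes, 14 had loss values above 0 and 12 had gain values below 0. Their medians were 2.52 for loss and -0.31 for gain, against 0.00 for both over all genes. Tac1, Ghrl, Pyy and Insl5, which encode tachykinins, ghrelin, peptide YY and an insulin-like peptide, had loss values from 2.21 to 3.12 but gain values from -0.32 to -0.10. They were thus not members. The secretory granule genes had smaller medians, of 0.17 for loss and -0.23 for gain over 23 genes. Of the 23, 13 lay above 0 and 10 below 0 in loss, 18 lay below 0 in gain, and 14 had opposite signs. Chga, which encodes chromogranin A, had values of 1.99 and -0.59, and Scg3, a granin, 1.19 and -0.63. Slc18a1, Tph1 and Pcsk1 were below 0 in both, with loss values of -0.86, -0.57 and -0.34 and gain values of -0.56, -0.33 and -0.88.

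The transcription factors of enteroendocrine cells were mixed: of 20 measured, 7 had loss values above 0, with 2 higher and 9 lower at 1.5-fold. Neurog3, which starts that lineage, had a log2 ratio of -2.39 on the null array and 0.25 on the self-self array, with 0.25 and 0.97 on the Ascl2 OE arrays. Its loss value was -2.64 and its gain value 0.61 ± 0.18 (SE, n = 2, limma adjusted p = 0.191). Pax4 and Insm1, which act in the same lineage, had loss values of -3.29 and -2.03 and gain values of 0.39 and 0.35, and were not members. The 2 higher factors were Nkx2-2, not well above background in control RNA, and Onecut2, with a loss value of 1.11 and a gain of -0.09. Over the 20 factors the medians were -0.37 for loss and 0.08 for gain.

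Enterocyte genes were the largest list among the members. Of 38 measured, 11 had higher loss and lower gain values and 1, Lct, was lower in both. Over all genes the shares of these classes were 1.34% and 0.0803%, and the list was chosen with earlier results known. In gain, 37 of 38 lay below 0 and 24 passed 1.5-fold, while in loss 28 lay above 0 and 16 passed. The medians were 0.48 for loss and -0.63 for gain. Fabp1, a fatty acid binding protein, had a log2 ratio of 0.97 on the null array and 0.09 on the self-self array, with -0.82 and -1.46 on the Ascl2 OE arrays. Alpi, the brush border alkaline phosphatase, had 2.39 and 0.38 on the experiment 3 arrays, with -0.92 and -0.45 on the Ascl2 OE arrays. The null array stood above its self-self array and both arrays labelled Ascl2 OE below 0 for either gene. Rbp2, which carries retinol, and Fabp2 had loss values of 1.40 and 1.32 and gain values of -0.87 and -0.78. For Cyp3a11, a cytochrome P450, the loss value of 0.78 came from the self-self array, at -0.96, since the null array itself was at -0.19. Enpep was alike, with a loss value of 0.89 from 0.04 on the null array and -0.85 on the self-self array. Anpep and Krt20, at 0.31 and 0.39 on the null array, did not pass 1.5-fold there either. Lct, which encodes lactase, had loss and gain values of -0.61 and -1.05.

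**Figure D2:**
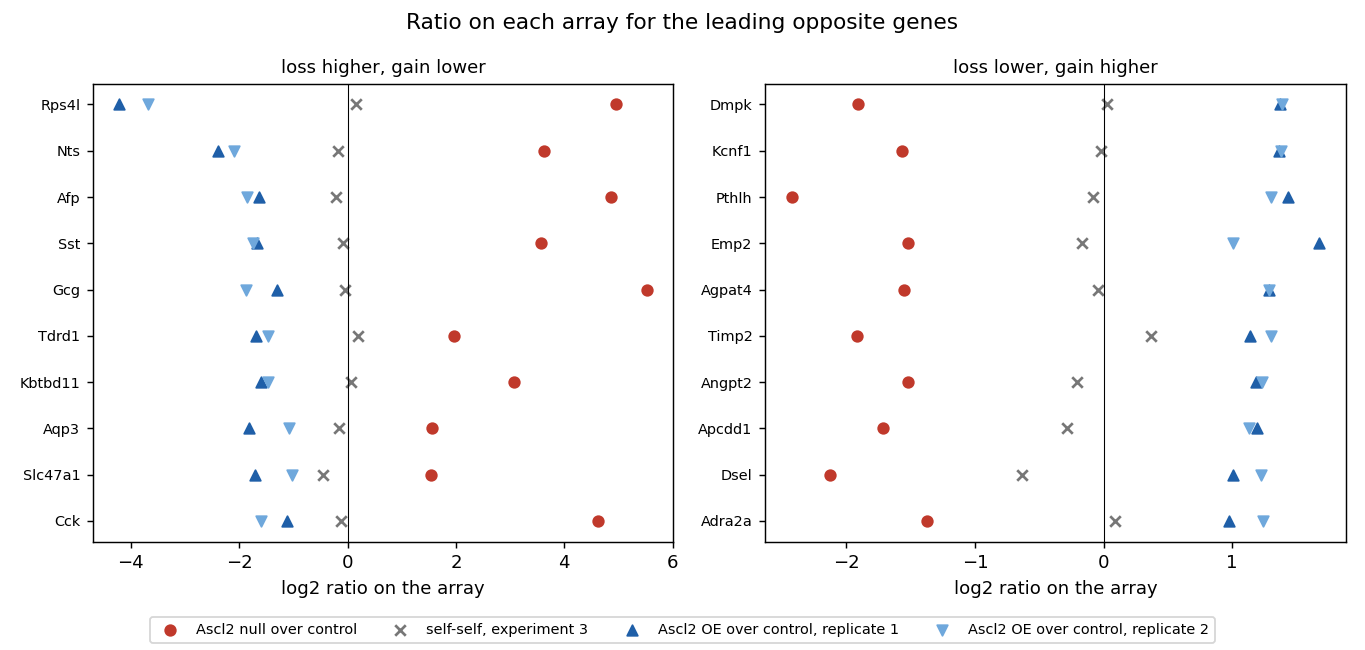
Log2 ratio on each array for the 10 leading genes of each opposite class, with the null array and its self-self array beside the 2 Ascl2 OE arrays turned to Ascl2 OE over control. The self-self points lie between -0.63 and 0.37, and the null and Ascl2 OE points lie on opposite sides. The genes were chosen for opposite loss and gain values and for Ascl2 OE arrays that agree in sign after the dye term. The separation drawn thus follows largely from the choice.

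Members with higher loss and lower gain, 1.34% of all genes, included genes of xenobiotic conjugation and transport. The families were picked and counted after the members had been seen, so their counts are a description. Of 19 measured glutathione S-transferases 7 were such members, of 13 UDP-glucuronosyltransferases 5, of 65 cytochrome P450 genes 9, of 15 carboxylesterases 4 and of 305 solute carriers 19. Of the solute carriers, 3 more had lower loss and higher gain and 1 was lower in both, while the glutathione S-transferases, glucuronosyltransferases, cytochrome P450 genes and carboxylesterases had no gene in another class. Gstm1 had loss and gain values of 1.85 and -1.05, and Gsta1 had 1.52 and -1.05. Ugt2b38 had 1.35 and -0.72. All 13 glucuronosyltransferases had loss values above 0 and 12 had gain values below 0. Some members of these families did not pass 1.5-fold on the null array alone. Cyp3a11, Cyp3a16 and Cyp3a44 stood at -0.19, 0.10 and -0.08 there, with the self-self array at -0.96, -0.66 and -0.78. Ugt1a1, Slc22a18 and Slc27a2 had 0.53, 0.41 and 0.20 on the null array. Members of these families resemble each other in sequence, so probes within one family may read several of them. Slc6a20a, an amino acid transporter, had 2.71 and -0.74, and Slc47a1, which exports organic cations, 1.99 and -1.37. Aqp3, a water and glycerol channel, had 1.72 and -1.45.

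Fatty acid oxidation and PPAR target genes had loss values above 0 in 28 of 28 measured and gain values below 0 in 24, with medians of 0.45 and -0.21. Me1, the cytosolic malic enzyme, and Creb3l3, a membrane-bound transcription factor of lipid metabolism, were its 2 members, with loss values of 2.52 and 1.23 and gain values of -1.02 and -0.71. Among other leading genes, Cbr3, a carbonyl reductase, had the highest loss value of the class, 6.70, with a gain of -1.05 ± 0.11 (SE, n = 2, limma adjusted p = 0.037). Afp, which encodes alpha-fetoprotein, had 4.86 on the null array and -0.22 on the self-self array, with -1.63 and -1.85 on the Ascl2 OE arrays. Psmb8, an immunoproteasome subunit, had a loss value of 4.38 and a gain of -1.13, while the interferon list it belongs to had medians of -0.09 and -0.16. Rps4l, a gene related to ribosomal protein S4, had the largest gain value of all members, -3.94 ± 0.16 (SE, n = 2, limma adjusted p = 0.00388), with -4.21 and -3.68 on the Ascl2 OE arrays and 4.95 on the null array. The cytosolic ribosomal protein list held no member. Tdrd1, a germline tudor-domain gene, was not well above background in the control RNA of experiment 3 or in the Ascl2 OE RNA, so it was at least 3.42-fold higher in null organoids and at least 2.98-fold lower on the arrays labelled Ascl2 OE.

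Of 28 measured crypt base stem cell genes, 7 were members of the class with lower loss and higher gain and 0 of any other class, against 0.648% of all genes in that class. In loss 21 of 28 lay below 0, in gain 23 lay above 0, and the medians were -0.58 and 0.39. At 1.5-fold in loss, 14 were lower and 2, Igfbp4 and Vdr, were higher. Igfbp4 was not well above background in control RNA, so it was at least 3.53-fold higher in null organoids, with a gain of 0.23. Vdr had loss and gain values of 0.90 and 0.00. Lgr5, a receptor for R-spondins, had a log2 ratio of -0.63 on the null array and 0.38 on the self-self array, with 1.04 and 0.54 on the Ascl2 OE arrays. The self-self array thus contributed to its loss value of -1.01. Its gain value was 0.79 ± 0.11 (SE, n = 2, limma adjusted p = 0.0516). Olfm4, a secreted stem cell glycoprotein, had -3.24 on the null array and -0.98 on the self-self array, with 1.55 and 0.28 on the Ascl2 OE arrays. Its loss value was -2.26 and its gain value 0.92 ± 0.39 (SE, n = 2), and the gain rested on replicate 1: without it, and with the self-self arrays as the dye term, the value was -0.21. Aqp4, a water channel, had loss and gain values of -0.74 and 1.42. Ephb3, a guidance receptor and Wnt target, had -1.18 and 0.78. Rgmb, a bone morphogenetic protein co-receptor, had -0.85 and 0.82, Smoc2, a matrix protein, -0.68 and 0.66, and Cdca7, a cell division cycle associated gene, -0.90 and 0.61. On the null array alone Aqp4, Smoc2 and Cdca7 had -0.53, -0.42 and -0.39 and did not pass 1.5-fold.

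Wnt target genes had medians of -0.31 for loss and 0.25 for gain over 18 measured, with 15 below 0 in loss and 14 above 0 in gain. Their 3 members were Ephb3, Fzd2, a Wnt receptor, and Apcdd1, a membrane protein that restrains Wnt signalling. Apcdd1 had a log2 ratio of -1.71 on the null array and -0.28 on the self-self array, with 1.19 and 1.14 on the Ascl2 OE arrays. Its loss and gain values were -1.43 and 1.16. Sp5, another Wnt target, did not follow, with a loss value of 4.22 and a gain of -0.41. Wnt3, the Wnt ligand of Paneth cells, had -1.34 and 0.70 and was the single member of the Paneth list. That list had medians of -0.11 for loss and 0.14 for gain.

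Notch pathway genes had medians of -0.23 for loss and 0.15 for gain over 20 measured. Lfng, a glycosyltransferase that modifies Notch receptors, had loss and gain values of -1.37 and 0.66, and Hes5, a Notch target repressor, had -0.63 and 0.78. Dll1, a Notch ligand, had a loss value of -1.24 but a gain of 0.04. Sox4, a transcription factor of progenitors, had -1.49 and 0.83, and Id2, an inhibitor of basic helix-loop-helix factors, had -0.85 and 1.40. Among goblet genes, 17 of 21 measured had loss values below 0, and the list's median on the self-self array, which is subtracted, was 0.23. Fcgbp, Agr2 and Bcas1, for example, were above 0 on the null array, at 0.21, 0.10 and 0.07. At 1.5-fold in loss, 10 goblet genes were lower and 2 higher. Of the higher ones, Muc2 had a log2 ratio of 1.51 on the null array, a loss value of 1.16 and a gain of -0.44, and was not a member. Foxa3, a transcription factor, and Galnt12, which starts O-linked glycans, had lower loss and higher gain, while Zg16, a secreted lectin, had higher loss and lower gain.

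Of the 10 leading genes of the class, Apcdd1 alone was on a list. Dmpk, a protein kinase, had a log2 ratio of -1.91 on the null array and 0.03 on the self-self array, with 1.37 and 1.39 on the Ascl2 OE arrays. Pthlh, which encodes parathyroid hormone related protein, had -2.43 and -0.08 on the experiment 3 arrays, with 1.43 and 1.30 on the Ascl2 OE arrays. Timp2, a metalloproteinase inhibitor, had -1.92 and 0.37 on the experiment 3 arrays, with 1.14 and 1.30 on the Ascl2 OE arrays. In these 3 genes the null array was below 0 and both arrays labelled Ascl2 OE were above it. Kcnf1, a potassium channel subunit, Emp2, a membrane protein, and Angpt2, an angiopoietin, had gain values of 1.37, 1.34 and 1.21 and loss values of -1.54, -1.36 and -1.32. Of 8 measured genes of the kallikrein 1 family, looked at after its values had been seen, 5 were members of this class, with gain values from 1.07 for Klk1b8 to 1.28 for Klk1b3. On the null array itself they lay between -0.65 for Klk1b4 and -0.36 for Klk1b26, and Klk1b4 alone passed 1.5-fold there, while the self-self array lay between 0.22 and 0.44. Their sequences are close, and the probes may read the same transcripts.

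Promoters of the members were searched for CAGCTG, an E-box sequence that reads the same on both strands and is one of the forms of CANNTG. The window ran from 250 bases before to 50 after the start of each gene in RefSeq, build GRCm38.p6. CAGCTG was present in 22 of 90 promoters of genes with lower loss and higher gain, or 24.4%, and in 28 of 187 of those with higher loss and lower gain. Over all genes tested it was present in 15.3%, and in 6 of 10 promoters of the genes lower in both and 3 of 11 of those higher in both. CANNTG and ATCAAAG were searched too. In genes with lower loss and higher gain they were present in 75.6% and 4.44% of promoters. In genes with higher loss and lower gain the shares were 66.8% and 2.67%, and over all genes tested 65.8% and 2.87%. A match is a description of these windows and not a binding site. The promoters shown are of a hormone gene and of an endocrine, a Notch and a Wnt gene named above that hold CAGCTG, which is in capitals. They lie at chr10:102490369-102490668 (minus strand, Nts), chr10:62132840-62133139 (plus, Neurog3), chr5:140607091-140607390 (plus, Lfng) and chr16:21204545-21204844 (plus, Ephb3).
Nts: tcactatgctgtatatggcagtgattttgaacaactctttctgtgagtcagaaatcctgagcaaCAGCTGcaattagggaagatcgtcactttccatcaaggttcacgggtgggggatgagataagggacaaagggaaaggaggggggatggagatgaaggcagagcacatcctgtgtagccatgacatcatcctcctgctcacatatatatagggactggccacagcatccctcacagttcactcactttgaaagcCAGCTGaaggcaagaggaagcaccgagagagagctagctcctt
Neurog3: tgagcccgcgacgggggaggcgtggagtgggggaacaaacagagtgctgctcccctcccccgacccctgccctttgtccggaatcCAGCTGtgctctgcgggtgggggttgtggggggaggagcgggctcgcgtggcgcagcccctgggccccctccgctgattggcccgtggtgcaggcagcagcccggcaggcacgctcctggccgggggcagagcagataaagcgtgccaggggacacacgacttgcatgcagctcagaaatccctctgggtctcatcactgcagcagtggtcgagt
Lfng: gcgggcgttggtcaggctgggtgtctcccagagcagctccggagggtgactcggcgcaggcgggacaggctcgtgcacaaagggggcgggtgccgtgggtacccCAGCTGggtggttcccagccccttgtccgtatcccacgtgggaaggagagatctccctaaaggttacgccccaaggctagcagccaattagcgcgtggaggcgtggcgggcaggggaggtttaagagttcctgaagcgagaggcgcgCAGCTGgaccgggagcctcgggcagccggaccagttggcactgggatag
Ephb3: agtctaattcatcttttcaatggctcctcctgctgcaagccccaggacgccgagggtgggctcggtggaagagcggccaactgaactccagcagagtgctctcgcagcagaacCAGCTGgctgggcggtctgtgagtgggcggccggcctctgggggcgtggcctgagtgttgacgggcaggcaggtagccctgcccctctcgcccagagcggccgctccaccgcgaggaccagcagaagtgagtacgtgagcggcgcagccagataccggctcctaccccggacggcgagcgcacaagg
Nts and Lfng hold CAGCTG at 2 places, and Neurog3 and Ephb3 at 1.

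The 15 genes higher in both included 2 of the glycolysis and hypoxia list. Egln3, an oxygen-sensing prolyl hydroxylase, had a log2 ratio of 1.20 on the null array and -0.06 on the self-self array, with 0.81 and 0.92 on the Ascl2 OE arrays. Ankrd37, an ankyrin repeat gene, had loss and gain values of 0.92 and 1.01. P4ha2, a collagen prolyl hydroxylase outside that list, had 1.11 and 0.94. The whole list of 26 had medians of 0.37 for loss and 0.29 for gain, with 22 above 0 in loss and 21 in gain, and among the lists it alone had both medians above 0.2. On the experiment 2 array, however, its median was -0.43, with 24 of 26 below 0. S100a6, a calcium binding protein, had 3.25 on the null array and -0.39 on the self-self array, with 0.86 and 0.92 on the Ascl2 OE arrays. Clu, which encodes clusterin, had loss and gain values of 0.89 and 0.93, and its gain was -0.09 in the authors' deposited value table. Ptprz1, a receptor phosphatase, had 2.96 and 1.38 ± 0.34 (SE, n = 2, limma adjusted p = 0.138).

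The 15 genes lower in both included the nuclear long noncoding RNAs Malat1 and Neat1. Malat1 had a log2 ratio of -1.49 on the null array and 0.27 on the self-self array, with -1.21 and -0.83 on the Ascl2 OE arrays. Neat1 had -0.79 and 0.10 on the experiment 3 arrays, with -1.02 and -0.67 on the Ascl2 OE arrays. Both were thus below 0 on the null array and on both arrays labelled Ascl2 OE. Itpr1, a calcium release channel, had loss and gain values of -0.81 and -0.77, and Mtus2, a microtubule-associated gene, -1.29 and -1.24.

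**Figure D3:**
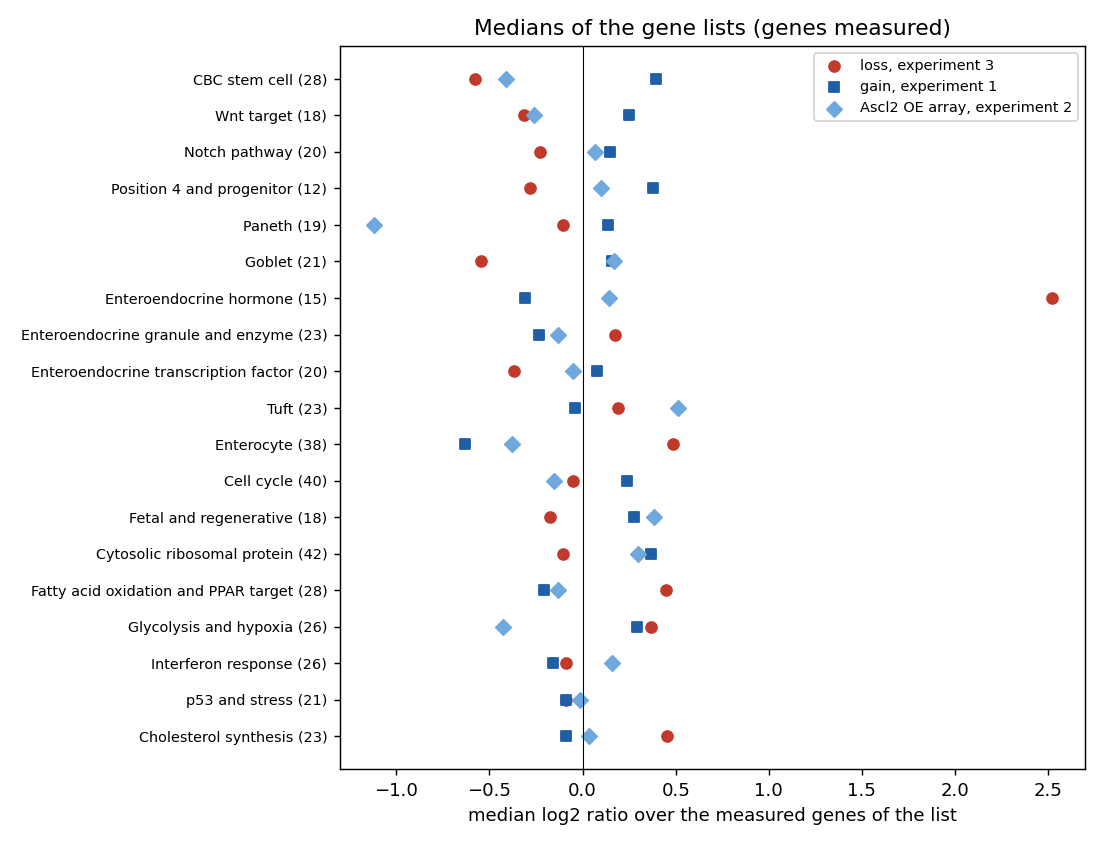
Median log2 value over the measured genes of each list for loss, for gain and for the experiment 2 Ascl2 OE array, with the number of measured genes in brackets. Enteroendocrine hormones have the highest loss median, 2.52, and enterocytes the lowest gain median, -0.63.

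Several lists differed in sign between loss and gain without holding members. The 40 cell cycle genes had medians of -0.05 and 0.24, with 36 above 0 in gain. The 42 ribosomal protein genes had -0.10 and 0.37, with 41 above 0 in gain. Tuft cell genes had 0.19 and -0.04 over 23 measured. Cholesterol synthesis genes had 0.45 and -0.09, with 19 of 23 above 0 in loss. The p53 and stress list had -0.09 in both.

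The members differed in size between the comparisons. The loss value was the larger one, in absolute terms, in 189 of 251 and 85 of 121 opposite genes. Median loss and gain were 1.00 and -0.77 in the first class and -0.95 and 0.79 in the second. At 2-fold in both, 34 and 17 opposite genes were left, with 1 gene higher and 4 lower in both. Just inside the threshold lay Sat1 in the first class, with 0.79 and -0.59, and just outside it Idh1, with 1.31 and -0.58. In the second class Lcp1 was just inside, with -0.59 and 0.77, and Nek6 just outside, with -0.58 and 0.65. Sh3pxd2a and Bnip3 stood at the threshold for genes higher in both, with gain values of 0.62 and 0.58. St3gal4, just inside among genes lower in both, had a gain of -0.60, and Slc2a5, just outside, a loss of -0.58. In 16 members 1 of the RNAs compared was not well above background, so that value is a bound.

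In limma's fit of gain, 46 and 35 of the opposite genes, 4 of those higher in both and 5 of those lower in both passed an adjusted p of 0.05, against 0.617% of all genes, or 115. Since membership used the same gain values, these counts describe the members only. They, and every adjusted p given here, rest on leaving out 56 spots with a high local background before the correction: with normexp on all spots 0 genes passed in limma, with 1441 at an unadjusted p under 0.05. Of other probes to the same genes on these arrays, 94 of 117 in the first class and 49 of 57 in the second had the same direction in both comparisons. Of these, 26 and 20 passed 1.5-fold in both.

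The experiment 2 array labelled Ascl2 OE was the measurement that the choice of members had not used. On it, at 1.5-fold, 2.48% of all genes were higher and 3.15% lower. The 247 measured genes with higher loss and lower gain had a median of -0.10, with 102 above 0 and 145 below, and 44 were higher and 34 lower at 1.5-fold. The 121 genes with lower loss and higher gain had a median of 0.12, with 76 above 0, and 14 were higher and 18 lower at 1.5-fold. The opposite classes thus had medians signed as in experiment 1, yet at 1.5-fold more of their genes went the way of loss than the way of gain. Of the 15 genes higher in both, 8 were higher at 1.5-fold, and of the 15 lower in both, 8 were lower. With 1 array there is no error for these values.

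**Figure D4:**
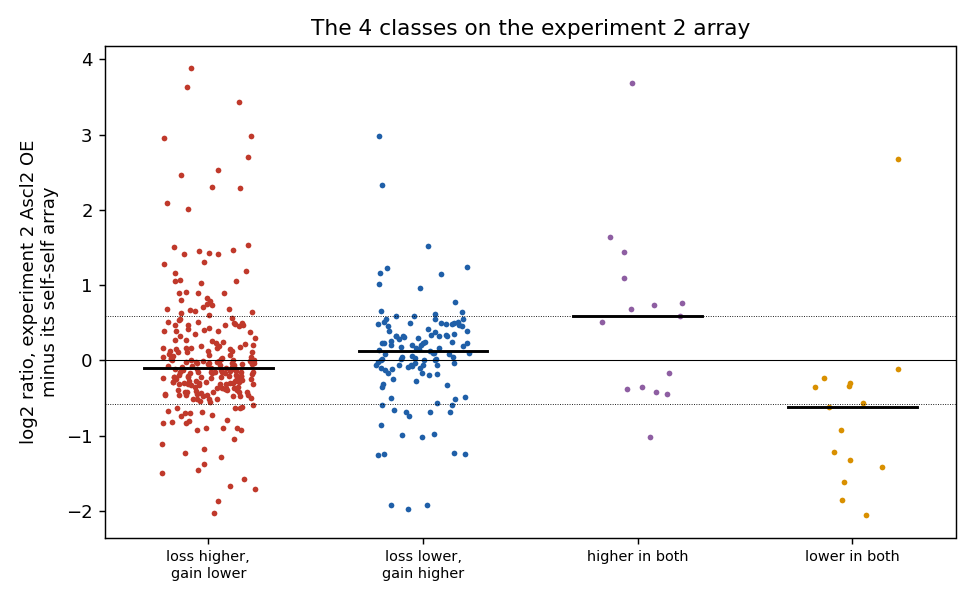
Log2 value on the experiment 2 Ascl2 OE array, minus its self-self array, for each member by class, with the class median as a bar and 1.5-fold as dotted lines. The medians are -0.10 and 0.12 in the opposite classes, which spread on both sides of 0, and 0.59 and -0.62 in the same-direction classes.

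By gene group, the experiment 2 array split the opposite genes. Gcg, Cck, Gip and Sst had values of 3.88, 2.95, 3.63 and 2.99 there, the side of loss, while Nts had -0.24. Of the 7 stem cell members, 6 had the sign of loss, among them Lgr5 at -1.92, Olfm4 at -1.98 and Ephb3 at -1.25, and Aqp4, at 1.52, had the sign of gain. The enterocyte list had a median of -0.38, the side of gain, and Fabp1 was at -0.90, but of its 11 opposite members 6 had the sign of gain and 5 that of loss. All 5 glucuronosyltransferase members had the sign of gain, from -1.24 for Ugt1a9 to -0.41 for Ugt2b38. Among the same-direction genes, Clu and S100a6 were at 1.63 and 0.73, while Egln3 and P4ha2 were at -0.35 and -1.02. Over all genes the experiment 2 values had an r of 0.18 with gain and of 0.25 with loss, as a description.

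**Figure D5:**
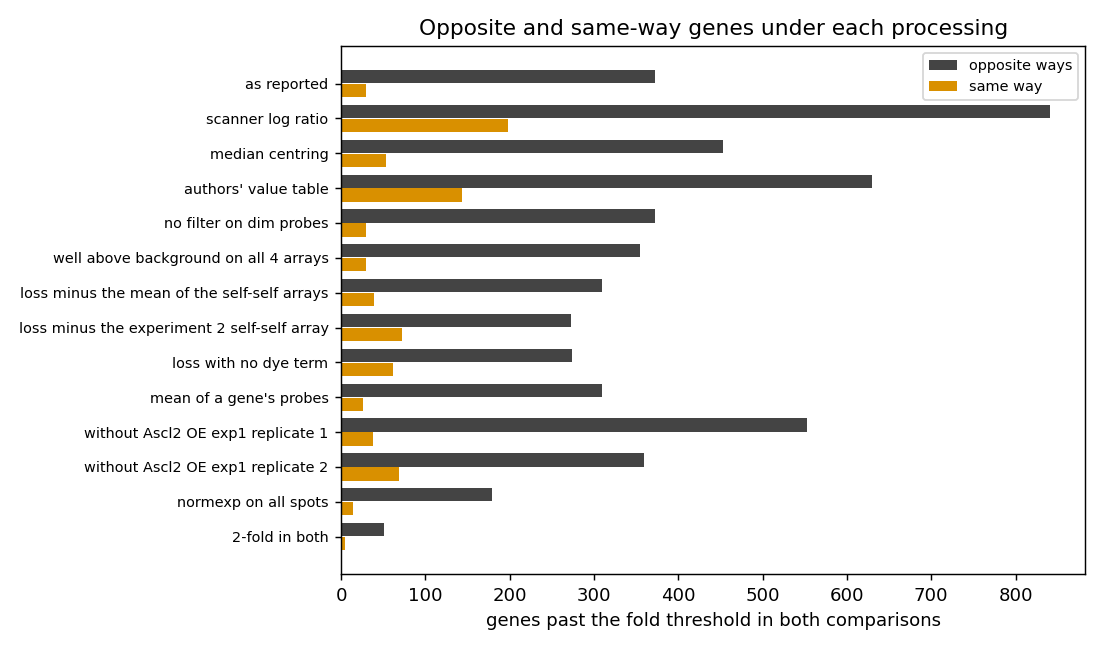
Number of genes past the threshold in both comparisons, in opposite directions and in the same direction, under each processing of the same arrays. Opposite genes outnumber same-direction genes under every setting drawn, from 51 against 5 at 2-fold to 841 against 198 with the scanner's own log ratio.

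The number of members depended on the normalization and on the array used as the dye term. With median centring in place of loess, the opposite classes held 87 and 366 genes in place of 251 and 121, so the balance between them turned. Of the 372 opposite genes as reported, 206 were opposite there too. With the experiment 2 self-self array in place of the slide's own, 273 genes were opposite and 72 in the same direction.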

How the data were processed

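Per the file headers, the deposited scanner files come from Feature Extraction 10.5.1.1 and hold spot and local background intensities, not normalized between arrays, and a log10 ratio of Cy5 over Cy3. A value table that the authors deposited gives log2 ratios of the same arrays. It equals the scanner ratio on the arrays of experiments 2 and 3 within 0.02. On those of experiment 1, where replicate 2 was turned, its absolute value differs by more for 8.66% and 8.40% of probes. These shares do not count probes that differ in sign only. Its r with the scanner ratio was 0.86 for replicate 1 and -0.85 for replicate 2, so the tables differ by more than these shares show. Its centring there is unknown.

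From the deposited intensities, background was corrected with normexp (offset 50) on median spot and background signals, followed by loess within each array in limma 3.58.1 (R 4.3.3). Before this, 56 spots of Ascl2 OE replicate 2 with a local background above 10 times the array's median were left out. This rule was set after the data were seen, and normexp on all spots was run as an alternative chosen after seeing the data. A probe was kept (27094 of 41174) if 2 or more of the 4 arrays had it well above background in some channel. Of all 41174 probes, 26918 were named by their own accession, 111 through another accession and 795 through an older name, and 13350 kept the array's name. The brightest probe stood for a gene. Of 18685 genes, 14687 had a plain current symbol, a count that leaves out names of forms such as Gm, LOC, Rik and -ps. On the 6 arrays used, of 8 in the series, 53.3% to 67.4% of spots were well above background in a colour and 0 were saturated. The number of arrays limits the precision: 1 array for loss, 2 for gain.

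Gain was fitted with a dye term on the 2 dye-swapped arrays and the 2 self-self arrays in limma, with 2 residual degrees of freedom and Benjamini-Hochberg adjustment over all 18625 genes with 4 values. The fit was tested on simulated data. Loss, with 1 array, has no test. Bounds ("at least") use the lowest signal well above background in a channel and are no larger than the measured fold. Members and gene lists were chosen with earlier results of these data known. Named genes are Ascl2, the 10 leading genes of each class, list members in a class or at 2-fold in loss, those beside the threshold, and the 5 extremes. Leading genes were ranked by the smaller of the 2 absolute values. They were taken only from genes with a plain current symbol whose 2 Ascl2 OE arrays agreed in sign after the dye term. Celf3, lower in both, was left out of the 10 by this filter, with -1.80 and 0.16 on the Ascl2 OE arrays. Genes named outside these rules (Y-linked genes, gene families) were chosen after their values were seen. Alternatives covered the normalization, source of values, filter, dye term, probe, fold and each Ascl2 OE replicate left out.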

Additional observations from a re-analysis of the deposited data

Results flagged for a closer look

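Among the genes named that passed 1.5-fold in gain, 19 stood apart: the experiment 2 array labelled Ascl2 OE lay past 1.5-fold on the side opposite to both such arrays of experiment 1 after the dye term. The difference between the experiments was not tested, since experiment 2 had 1 such array, and the experiments differed in slide, scan day and control organoids. Higher in experiment 2 and lower in experiment 1 were the hormone genes Gcg (3.88), Gip (3.63), Sst (2.99) and Cck (2.95), and Kbtbd11 (3.43), Cbr3 (2.31), Psmb8 (1.46), Slc6a20a (1.30), Afp (1.05) and Gstm1 (0.64). Lower in experiment 2 and higher in experiment 1 were the stem cell genes Lgr5 (-1.92), Ephb3 (-1.25), Cdca7 (-1.01) and Rgmb (-0.68), the Wnt ligand gene Wnt3 (-0.98), the Notch target Hes5 (-0.66), and Adra2a (-1.24), Dsel (-1.25) and P4ha2 (-1.02).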

How the results depend on the processing

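Opposite genes outnumbered same-direction genes under every alternative run, but they were not all the same genes. Of the 372 opposite genes as reported, 206 were also opposite with median centring, 161 with normexp on all spots and 238 without Ascl2 OE replicate 2. Under the other alternatives at 1.5-fold, 254 to 372 were. The classes held, in the order loss higher and gain lower, loss lower and gain higher, higher in both and lower in both, 516, 325, 79 and 119 genes with the scanner's log ratio (r = -0.34), and 447, 183, 52 and 91 in the authors' deposited value table (r = -0.34). Median centring gave 87, 366 and 43 in the first 3. Normexp on all spots, an alternative chosen after seeing the data, gave 133, 46 and 3. At 2-fold they held 34, 17, 1 and 4. The same-direction classes held 44 and 28 genes, with r = -0.19, when loss was taken minus the experiment 2 self-self array, and 33 and 29, with r = -0.25, without a dye term. Minus the mean of the self-self arrays, r was -0.33. Leaving out 1 Ascl2 OE replicate gave 234 to 298, 125 to 255, 15 to 29 and 23 to 40 genes and an r from -0.37 to -0.26. Genes past limma's threshold fell to 9 with a shared Ascl2 effect in experiment 2, 8 with the scanner's log ratio, 1 with median centring and 0 with normexp on all spots (1441 at an unadjusted p under 0.05), against 115 as reported, and 2728 had an unadjusted p under 0.05. Signs turned for 7 named values: the gains of Clu (-0.09) and Fzd2 (-0.80) in the authors' table, of Olfm4 (-0.21 to 2.04), Celf3 (-1.95 to 0.31) and St3gal4 (-1.52 to 0.31) with 1 replicate left out, and the losses of Cyp3a11 (-0.19) without a dye term and of Mcm2 (0.090) minus the experiment 2 self-self array. The cause was not tested. The filter on dim probes changed no sign of a named gene. No paired analysis was possible because only the Ascl2 OE arrays of experiment 1 carry replicate numbers.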

Other observations

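The largest gain values outside the members belonged to Gimap1 and Gimap5, GTPase genes known from lymphocytes, at -2.59 and -2.14, with -2.79 and -2.40, and -2.38 and -1.91, on the Ascl2 OE arrays. Their loss values were 0.16 and -0.26, and their values on the experiment 2 array 0.41 and 0.27. The largest loss values outside the members belonged to Smpdl3a, a phosphodiesterase gene, at 5.89, and Gas6, a ligand of TAM receptors, at 5.27, with gain values of 0.22 and -0.56. On the experiment 2 array they had 2.44 and 4.35. Prim2, a DNA primase subunit, had a loss value of -3.56 and a gain of 0.02. Angptl4, a secreted lipase inhibitor and PPAR target, had a loss value of 4.07, a gain of 0.21 and an experiment 2 value of 1.57.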
